A study of Mus musculus with 24 samples.

Results

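The genes described here were Akr1cl and the Akr1c genes of the mouse, the aldo-keto reductases of subfamily 1C, followed in mammary glands of mice that over-expressed Esr1 or CYP19A1. Members were the rows of the deposited expression table whose gene symbol was Akr1cl, Akr1c6, Akr1c12, Akr1c13, Akr1c14, Akr1c18, Akr1c19, Akr1c20 or Akr1c21, which gave 9 of 55487 genes. Akr1cl was chosen because its level was seen to rise steeply with tamoxifen in both lines, so its tamoxifen and untreated values are given as a description without a test, and the other 8 were chosen by family name. Of the 9, 4 (Akr1cl, Akr1c13, Akr1c14 and Akr1c18) had at least 1 TPM in at least 3 samples, the filter for testing that 19325 genes passed. TPM is the share of a sample's transcripts that a gene accounts for, corrected for transcript length, so levels of different genes can be set side by side. The other 5 members are given by their levels, with the fit run without that filter for the pair (Akr1c12 and Akr1c19) whose groups it called apart.

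RNA was sequenced from 24 mammary glands in 8 groups of 3 animals. All mice carried MMTV-rtTA, an activator driven by the mouse mammary tumour virus promoter, with either tet-op-CYP19A1, which encodes aromatase, the enzyme that makes oestrogens from androgens, or tet-op-Esr1, which encodes oestrogen receptor alpha. In each line the groups were 20 months of age with tamoxifen, 20 months with letrozole, 20 months with neither drug (called untreated) and 18 months, with 8 months of transgene induction at 20 months of age and 6 months of it at 18. Tamoxifen, an oestrogen receptor modulator (25 mg), and letrozole, an aromatase inhibitor (2.5 mg), came from pellets placed under the skin at 18 months that released drug over 60 days. The untreated samples carry an unexplained tag PLA in their descriptions, and the labels do not say whether they had a pellet without drug. The descriptions of the 18-month samples carry the tag 6MDoxy18M, which appears to name doxycycline. No sample came from a mouse without a transgene, so the lines can be compared with each other but not with wild type, and 20 months also means 2 more months of induction than 18 months.

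Aldo-keto reductases of the 1C subfamily are NADPH-dependent enzymes that reduce carbonyl groups or oxidise hydroxyl groups on steroids, prostaglandins and reactive aldehydes. Akr1c18 encodes 20alpha-hydroxysteroid dehydrogenase, which inactivates progesterone and ends pregnancy in mice when it is switched on in the corpus luteum. Akr1c14 encodes a 3alpha-hydroxysteroid dehydrogenase, Akr1c6 a 17beta-hydroxysteroid dehydrogenase (also called Hsd17b5) and Akr1c21 a 3(17)alpha-hydroxysteroid dehydrogenase. Akr1c12, Akr1c13, Akr1c19 and Akr1c20 encode further reductases of the subfamily, and Akr1cl is annotated as a member C-like gene with no role given here. In the mammary gland, progesterone acts on hormone-sensing luminal cells to drive side branching, and its local breakdown limits that signal.

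In the annotation of GRCm38.p6 (mm10), Akr1cl (ENSMUSG00000025955.13) lies alone on chromosome 1, from 65013078 to 65032759. The other 8 members lie on chromosome 13 between 4048991, where Akr1c14 starts, and 4586543, where Akr1c21 ends. Akr1c14 (ENSMUSG00000033715.15) spans 4048991 to 4090560, Akr1c18 (ENSMUSG00000021214.14) 4132615 to 4150646 and Akr1c13 (ENSMUSG00000021213.12) 4191168 to 4205604. A pseudogene, Gm8550, lies inside the span of Akr1cl, from 65027965 to 65028975, so reads of the pair may have been shared between them in the authors' quantification. The promoters of 8 members were found in the RefSeq table for this build, as windows of 250 bases before and 50 bases from the gene start; Akr1c20 had no entry.

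Promoter windows are shown for Akr1cl, the member with the widest range of levels, for Akr1c18, which differed between the lines, and for Akr1c13 and Akr1c12, a pair with nearly the same promoter but different levels. They are Akr1cl (minus strand of chr1:65032710-65033009), Akr1c18 (minus strand of chr13:4150597-4150896), Akr1c13 (plus strand of chr13:4190937-4191236) and Akr1c12 (minus strand of chr13:4279350-4279649). Capitals mark oestrogen response element half-sites (GGTCA) and CCAAT boxes (CCAAT, or ATTGG where the match is on the other strand).
Akr1cl: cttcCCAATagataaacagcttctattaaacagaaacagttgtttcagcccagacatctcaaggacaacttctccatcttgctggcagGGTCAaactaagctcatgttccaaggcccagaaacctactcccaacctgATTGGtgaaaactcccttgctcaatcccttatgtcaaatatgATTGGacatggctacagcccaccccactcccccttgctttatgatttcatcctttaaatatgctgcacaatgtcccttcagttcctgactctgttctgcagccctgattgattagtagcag
Akr1c18: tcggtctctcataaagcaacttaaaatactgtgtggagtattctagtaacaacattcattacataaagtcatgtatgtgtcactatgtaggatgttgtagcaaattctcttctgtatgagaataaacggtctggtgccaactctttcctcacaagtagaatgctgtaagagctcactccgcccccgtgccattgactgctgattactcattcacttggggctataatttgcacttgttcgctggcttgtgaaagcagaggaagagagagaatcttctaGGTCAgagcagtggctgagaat
Akr1c13: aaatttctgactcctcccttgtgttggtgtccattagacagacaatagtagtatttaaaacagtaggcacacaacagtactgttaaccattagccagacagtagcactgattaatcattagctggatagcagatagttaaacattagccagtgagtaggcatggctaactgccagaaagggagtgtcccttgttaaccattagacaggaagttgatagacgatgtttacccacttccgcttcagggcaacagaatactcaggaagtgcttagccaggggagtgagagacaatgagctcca
Akr1c12: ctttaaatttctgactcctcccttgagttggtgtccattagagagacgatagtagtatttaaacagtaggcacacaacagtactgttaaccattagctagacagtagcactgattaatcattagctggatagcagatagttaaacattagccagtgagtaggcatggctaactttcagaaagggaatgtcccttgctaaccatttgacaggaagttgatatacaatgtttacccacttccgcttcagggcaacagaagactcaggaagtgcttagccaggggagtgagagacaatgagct

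Searched on both strands, the Akr1cl window held 1 oestrogen response element half-site, whose first base is at -162 relative to the gene start, and 3 CCAAT boxes at -246, -113 and -71. Akr1c18 held 1 half-site at 29 and no CCAAT box, and the windows of Akr1c13 and Akr1c12 held neither. A full oestrogen response element, spelled GGTCANNNTGACC and containing the half-site, was in 0 of the 8 windows and in 0.07% of 32851 mouse promoters. Half-sites were in 40.5% of those promoters and CCAAT boxes in 37.4%, so a match to either is common in a window of this length. These motifs were picked with the sequences in view, and a match describes letters only. Akr1c12 and Akr1c13 were 95.6% identical over 297 aligned columns, with 13 columns differing or gapped, while the other 27 pairs of windows ranged from 51.3% to 62.4%.

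Whole-library measures bear on a few of the values that follow. Between 14410 and 17684 genes reached 1 TPM in the 24 libraries. The fewest were in CYP19A1 letrozole replicate 1, and differences that rest on it are not given separately without it. The depth behind a value is unknown, because TPM does not hold it, and no counting interval is given. Gene models of the rRNA biotype took 17.4% of the TPM in untreated Esr1 replicate 2, against a median of 0.0577% over all libraries, and that library had 14595 genes with at least 1 TPM, so the differences of members that rest on it are also given without it. Summed TPM of 10 skeletal muscle markers ran from 5220 to 28400 in the 20-month groups and from 21.5 to 11700 in the 18-month groups. Among the 20-month groups, untreated Esr1 glands had the lowest median sum (14400 TPM, range 5220 to 17100 TPM). All 10 epithelial markers were above 0 in every library. Of 8 hormone-sensing luminal markers, Ly6a had the highest median, 78.8 TPM, followed by Prlr at 28.9 TPM, so Ly6a weighs most in their sum. In bulk tissue, fewer cells of a type and less RNA per cell cannot be told apart.

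Akr1cl was higher in the tamoxifen glands of both lines than in any other group. In CYP19A1 glands it had 189.01, 158.46 and 148.89 TPM with tamoxifen, against 2.16, 3.22 and 1.36 TPM untreated. In Esr1 glands it had 61.77, 72.73 and 130.87 TPM with tamoxifen, against 6.17, 0.08 and 0.35 TPM untreated. The lowest of the 6 tamoxifen libraries lay above the highest of the 18 others, which was 23.89 TPM, in an Esr1 gland of 18 months. Mean levels were 165 ± 21.0 TPM with tamoxifen and 2.25 ± 0.933 TPM untreated in the CYP19A1 line (SD, n = 3 each), a ratio of 73.6. In the Esr1 line they were 88.5 ± 37.1 TPM with tamoxifen and 2.20 ± 3.44 TPM untreated (SD, n = 3 each), a ratio of 40.2. That ratio turned on the untreated libraries, being 411 without untreated Esr1 replicate 1, 27.1 without replicate 2 and 28.3 without replicate 3, while the ratio in the CYP19A1 line ran from 61.5 to 94.0 when any of its 6 libraries was left out. On the log2(TPM + 1) scale, which understates changes of low values, the difference was 5.71 ± 0.72 in the CYP19A1 line and 5.28 ± 0.72 in the Esr1 line (standard error of the fit). The Esr1 difference was 6.13 without untreated Esr1 replicate 1 and 4.77 without replicate 2.

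**Figure D1:**
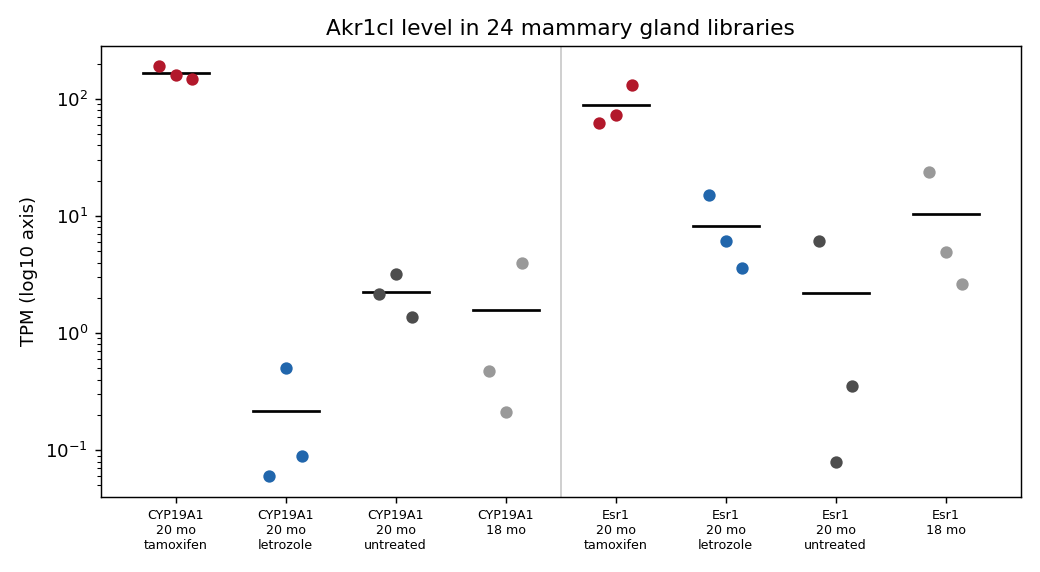
TPM of Akr1cl (log10 axis) in each of 24 libraries, by group, with the CYP19A1 line left of the Esr1 line; points are libraries and bars are group means (n = 3). The 6 tamoxifen libraries lie between 61.77 and 189.01 TPM, above the other 18, which reach 23.89 TPM.

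Summed over 8 genes, salivary gland markers were 149 to 152 TPM in CYP19A1 tamoxifen glands, against 73.3 to 78.9 TPM untreated, and 63.9 to 267 TPM in Esr1 tamoxifen glands, against 20.5 to 91.2 TPM untreated. Amy1 and Aqp5 made up nearly all of it, and the salivary genes Smr3a, Dcpp1, Dcpp2 and Bpifa2 were at 0 in 22, 22, 19 and 17 of 24 libraries and never above 0.15 TPM. Of these 8 genes 2 were tested, and Aqp5 was called higher in Esr1 tamoxifen glands (2.54 ± 0.62, limma adjusted p = 0.049) and neither in CYP19A1 tamoxifen glands. Epithelial markers summed to 284 to 387 TPM with tamoxifen and to 328 to 470 TPM untreated in CYP19A1 glands, with 0 of 10 called. Hormone-sensing luminal markers in CYP19A1 glands summed to 128 to 160 TPM with tamoxifen and to 212 to 223 TPM untreated, without overlap, with 1 of 8 called lower (Areg), and endothelial markers to 162 to 176 TPM with tamoxifen and to 138 to 159 TPM untreated, with 0 of 7 called. In Esr1 glands epithelial markers summed to 265 to 605 TPM with tamoxifen and to 469 to 585 TPM untreated, again with 0 of 10 called. There, 2 of 10 B and T cell markers (Cd3d and Trac) were called lower, in sums of 13.9 to 20.0 TPM with tamoxifen and 29.8 to 43.0 TPM untreated. Skeletal muscle markers in Esr1 glands summed to 18800 to 25900 TPM with tamoxifen and to 5220 to 17100 TPM untreated, without overlap, with none called. Over all tested genes, 0.16% were called with tamoxifen in CYP19A1 and 1.55% in Esr1 glands. The part of these lists in the Akr1cl values was not tested.

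Akr1cl made up most of the summed level of the 9 members with tamoxifen, and less of it in every other group. Its share of the TPM summed over the 9 members was 89.7% to 92.5% in CYP19A1 tamoxifen glands, against 5.39% to 13.9% in untreated ones. In Esr1 glands the share was 81.5% to 89.2% with tamoxifen, against 1.37% to 21.0% untreated. The highest share outside tamoxifen, 61.1%, was in an Esr1 gland of 18 months.

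With letrozole, Akr1cl was near 0 in CYP19A1 glands and not in Esr1 glands. CYP19A1 letrozole glands had 0.06, 0.5 and 0.09 TPM, all below the 1.36 to 3.22 TPM of untreated CYP19A1 glands, a difference of -1.39 ± 0.72 (log2, standard error). Esr1 letrozole glands had 14.98, 6.09 and 3.62 TPM, which overlapped the untreated Esr1 glands, with a difference of 1.88 ± 0.72, or 2.74 without untreated Esr1 replicate 1 and 1.37 without replicate 2. Neither is tested, since the untreated libraries were used to choose the gene. The letrozole libraries were not, and CYP19A1 glands were lower than Esr1 glands there by a log2 difference of -2.75 ± 0.72, with no overlap. This did not pass (limma, Benjamini-Hochberg adjusted p = 0.10 over 19325 genes, of which 0.906% passed in either direction). It passed in 4 of 32 other settings, with adjusted p between 0.036 and 0.54, among them the fits without replicate 1 of the Esr1 18-month or of the Esr1 untreated group. Summed fibroblast markers were 435 to 1020 TPM in CYP19A1 letrozole glands and 1200 to 1300 TPM in Esr1 letrozole glands. Summed macrophage markers were 107 to 200 TPM in CYP19A1 letrozole glands and 221 to 404 TPM in Esr1 letrozole glands. No gene of either list was called, and their part in the difference was not tested. Against untreated glands, CYP19A1 letrozole glands had lower epithelial sums (68.4 to 306 against 328 to 470 TPM), without overlap. Hormone-sensing luminal sums (90.2 to 151 against 212 to 223 TPM) and fibroblast sums (435 to 1020 against 1080 to 1440 TPM) were also lower without overlap. Sums of the other lists overlapped. No marker gene was called in that comparison, and the part of these lists was not tested.

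At 18 months Akr1cl had 0.47, 0.21 and 4.0 TPM in CYP19A1 glands, against 23.89, 4.9 and 2.65 TPM in Esr1 glands, and the groups overlapped. Its log2 difference of -1.97 ± 0.72 did not pass (limma adjusted p = 0.32, with 1.36% of all tested genes called). Between the tamoxifen groups, CYP19A1 glands lay above Esr1 glands without overlap, by 0.97 ± 0.72, which is a description since those libraries chose the gene. Between untreated groups the values overlapped, with a difference of 0.53 ± 0.72, or 1.39 without untreated Esr1 replicate 1 and 0.02 without replicate 2. Untreated glands of 20 months and glands of 18 months overlapped in both lines, with differences of 0.61 ± 0.72 in CYP19A1 and -1.89 ± 0.72 in Esr1 glands. The Esr1 age difference was -2.75 without untreated Esr1 replicate 1 and -1.38 without replicate 2. In order of mean TPM, the 8 groups ran CYP19A1 tamoxifen, Esr1 tamoxifen, Esr1 18 months, Esr1 letrozole, CYP19A1 untreated, Esr1 untreated, CYP19A1 18 months and CYP19A1 letrozole. Neighbours in that order overlapped except at 3 steps, namely between the tamoxifen groups, from Esr1 tamoxifen to Esr1 18 months, and from Esr1 letrozole to CYP19A1 untreated.

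Akr1c14, the 3alpha-hydroxysteroid dehydrogenase gene, was the highest member outside tamoxifen in most groups and rose with age in the CYP19A1 line. It had 9.99, 9.77 and 14.40 TPM in CYP19A1 glands of 20 months, against 3.17, 4.39 and 5.87 TPM at 18 months. Every 20-month gland lay above every 18-month gland. Means were 11.4 ± 2.61 TPM at 20 months and 4.48 ± 1.35 TPM at 18 months (SD, n = 3 each), a log2 difference of 1.19 ± 0.35 (limma adjusted p = 0.039). It was the only 1 of 3 tested members called in this comparison, in which 9.45% of all tested genes passed. The call was lost in 8 of 32 other settings, with adjusted p between 0.0057 and 0.19: without a filter on low values, with the replicate block (adjusted p = 0.055), without any 1 of the 3 untreated CYP19A1 libraries, without CYP19A1 18-month replicate 1 or 2, and without CYP19A1 tamoxifen replicate 1.

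Markers of other cell types differed in the same comparison. The skeletal muscle markers summed to 16700 to 28400 TPM in CYP19A1 glands of 20 months and to 21.5 to 6100 TPM at 18 months, with 2 of 10 called higher, and the B and T cell markers to 13.6 to 16.5 TPM against 26.8 to 53.9 TPM, with 6 of 10 called lower. Hormone-sensing luminal markers summed to 212 to 223 TPM at 20 months and to 128 to 209 TPM at 18 months, with 1 of 8 called higher (Prom1), and endothelial markers to 138 to 159 TPM at 20 months and to 165 to 200 TPM at 18 months, with 0 of 7 called. Their part in the Akr1c14 result was not tested. The median of all tested genes lay at -0.225 in this comparison and at -0.02 after median-ratio scaling, and relative to it Akr1c14 differed by 1.41, Akr1c18 by 1.15 and Akr1c13 by -0.28. In Esr1 glands Akr1c14 had 14.09, 3.94 and 11.94 TPM at 20 months and 7.26, 8.86 and 12.48 TPM at 18 months, which overlapped. That difference was -0.06 ± 0.35 (limma adjusted p = 0.97), with 0.00517% of all tested genes called and 0 of 3 members, and was 0.44 without untreated Esr1 replicate 2 (adjusted p = 1.0). The difference between the lines in the age effect was 1.25 ± 0.49 for Akr1c14, which did not pass (limma adjusted p = 0.52), and was 0.75 without untreated Esr1 replicate 2.

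Neither drug gave a call for Akr1c14. Its levels were 7.32, 9.92 and 5.73 TPM in CYP19A1 tamoxifen glands and 6.17, 8.39 and 4.12 TPM in CYP19A1 letrozole glands, against 9.99, 9.77 and 14.40 TPM untreated. The letrozole glands all lay below the untreated ones, with a log2 difference of -0.80 ± 0.35 that did not pass (limma adjusted p = 1.0). Summed epithelial, hormone-sensing luminal and fibroblast markers were also lower in these letrozole glands, as given for Akr1cl, and their part was not tested. In Esr1 glands Akr1c14 had 9.99, 9.49 and 8.61 TPM with tamoxifen and 18.52, 10.27 and 9.34 TPM with letrozole, and both groups overlapped the untreated one. The tamoxifen difference there was 0.07, and -0.43 without untreated Esr1 replicate 2. The letrozole difference was 0.41, and -0.09 without that library. At 18 months and with letrozole, CYP19A1 glands lay below Esr1 glands without overlap, by -0.94 ± 0.35 and -0.91 ± 0.35 (limma adjusted p = 0.32 and 0.41). Averaged over the 4 conditions the line difference was -0.46 ± 0.17 (limma adjusted p = 0.14), and it passed only without untreated Esr1 replicate 2 (-0.58, adjusted p = 0.011).

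Akr1c18, the progesterone-inactivating member, was higher in the CYP19A1 line. Untreated CYP19A1 glands had 3.93, 7.28 and 6.07 TPM, against 3.52, 0.40 and 1.64 TPM in untreated Esr1 glands. The groups did not overlap, though the lowest CYP19A1 and the highest Esr1 gland were close. Means were 5.76 ± 1.70 TPM in CYP19A1 and 1.85 ± 1.57 TPM in Esr1 glands (SD, n = 3 each), with a log2 difference of 1.37 ± 0.38 (limma adjusted p = 0.043). It was 1 of 3 tested members called, in a comparison with 5.27% of all tested genes called. The call was lost in 19 of 32 other settings (adjusted p between 0.01 and 0.17), including the fit with the replicate block (adjusted p = 0.059). Leaving out untreated Esr1 replicate 2, the library with the most rRNA, gave 0.94 with an adjusted p of 0.17. Hormone-sensing luminal markers, a sum in which Ly6a weighs most, were at 212 to 223 TPM in untreated CYP19A1 glands and at 58.1 to 159 TPM in untreated Esr1 glands. Of these, 3 of 8 were called higher (Prom1, Ly6a and Pgr), and 5 of 10 B and T cell markers were called lower. Epithelial markers summed to 328 to 470 TPM in untreated CYP19A1 and to 469 to 585 TPM in untreated Esr1 glands. Their part in the Akr1c18 result was not tested.

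The same direction was seen for Akr1c18 at 18 months and with tamoxifen, but not with letrozole. At 18 months it had 1.82, 2.55 and 3.24 TPM in CYP19A1 glands, against 0.28, 1.09 and 1.24 TPM in Esr1 glands. With tamoxifen it had 2.83, 4.22 and 3.08 TPM in CYP19A1 glands, against 1.39, 0.38 and 2.41 TPM in Esr1 glands. Neither pair overlapped, with log2 differences of 0.94 ± 0.38 and 0.95 ± 0.38 that did not pass (limma adjusted p = 0.42 and 0.48). With letrozole it had 3.99, 3.26 and 1.58 TPM in CYP19A1 glands and 6.23, 3.86 and 3.26 TPM in Esr1 glands, which overlapped, and the difference of -0.48 ± 0.38 did not pass (limma adjusted p = 0.94). Averaged over the 4 conditions, Akr1c18 was higher in CYP19A1 glands by 0.70 ± 0.19 (limma adjusted p = 0.029, and 0.59 with an adjusted p of 0.043 without untreated Esr1 replicate 2), 1 of 3 members called where 7.27% of all tested genes were. That call was lost in 10 of 32 other settings, 9 of which left out a single library, with adjusted p between 0.0067 and 0.061. Endothelial markers moved the same way in that average (3 of 7 called higher), as did white adipocyte markers (2 of 10), while 2 of 10 epithelial markers, Krt14 and Krt5, were called lower. The part of these lists was not tested.

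Letrozole differences of Akr1c18 had opposite signs in the lines and passed in neither. Its log2 difference was -0.80 ± 0.38 in CYP19A1 glands (limma adjusted p = 1.0) and 1.05 ± 0.38 in Esr1 glands (limma adjusted p = 0.09). In CYP19A1 letrozole glands, summed epithelial, hormone-sensing luminal and fibroblast markers were also below untreated, and their part was not tested. The Esr1 difference passed after median-ratio scaling and without untreated Esr1 replicate 1, and was 0.62 without replicate 2. Set against each other, the letrozole effects of the lines differed by -1.85 ± 0.54, which did not pass (limma adjusted p = 0.27), and by -1.42 without untreated Esr1 replicate 2. Between the drugs in Esr1 glands, Akr1c18 was lower with tamoxifen than with letrozole without overlap (-1.24 ± 0.38, limma adjusted p = 0.34). With 20 months against 18 months in the CYP19A1 line, all 3 older glands lay above the younger ones (0.92 ± 0.38, limma adjusted p = 0.12).

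**Figure D2:**
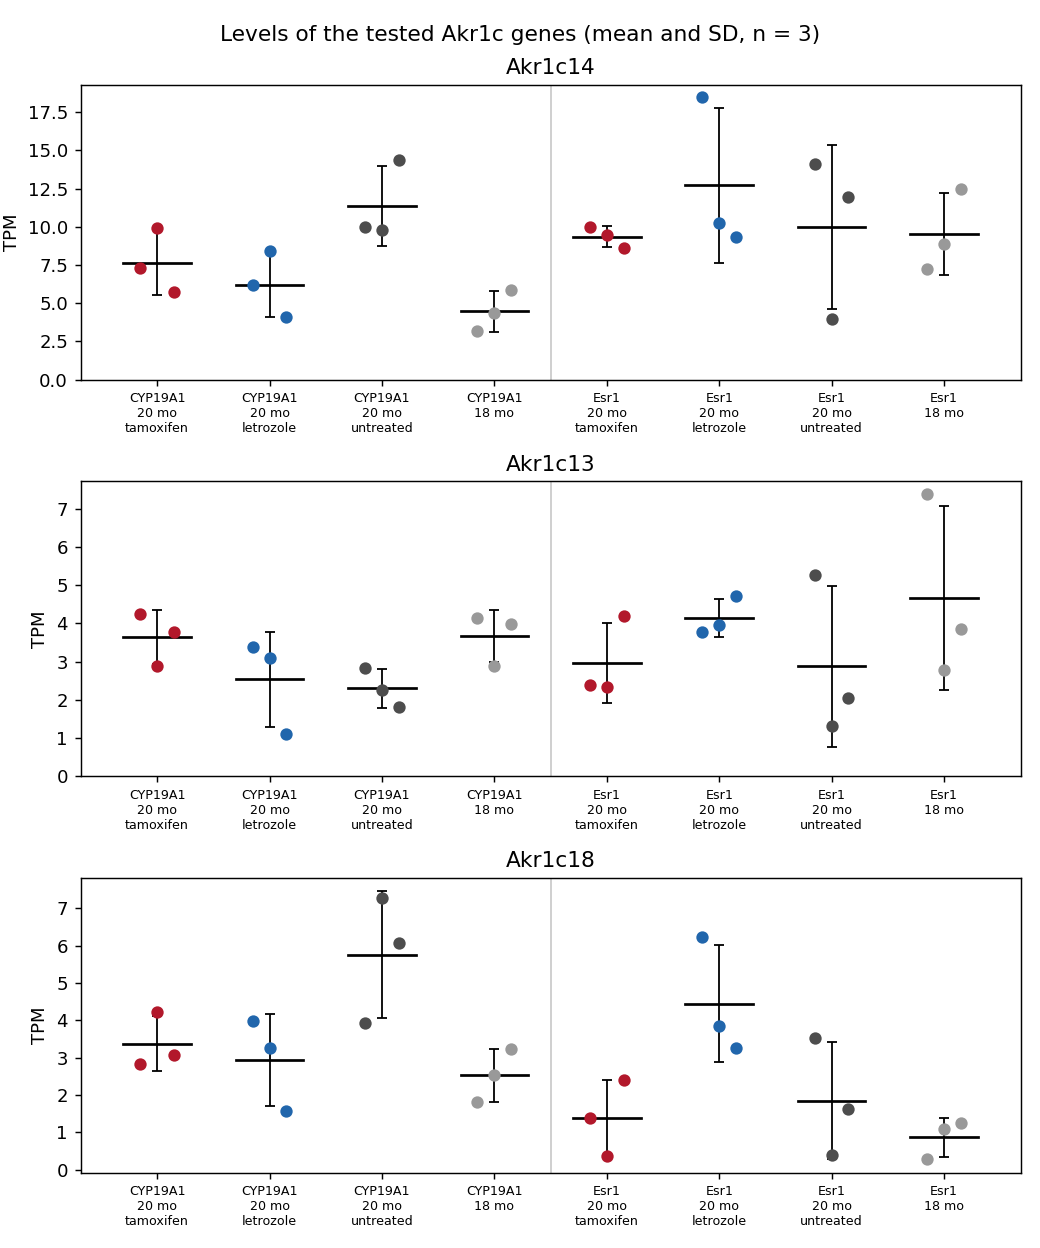
TPM of Akr1c14, Akr1c13 and Akr1c18 in each library by group, with bars for the mean and SD (n = 3). Akr1c14 has the highest mean of the 3 in each group, with 9.77 to 14.40 TPM in untreated CYP19A1 glands of 20 months and 3.17 to 5.87 TPM at 18 months; Akr1c18 has 3.93 to 7.28 TPM in untreated CYP19A1 and 0.40 to 3.52 TPM in untreated Esr1 glands.

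Akr1c13 was called in no comparison. It ranged from 1.10 to 7.38 TPM with a median of 3.25 TPM over the 24 libraries, above the 1 TPM mark in all of them. In CYP19A1 glands it had 4.25, 2.87 and 3.78 TPM with tamoxifen, against 2.83, 2.25 and 1.82 TPM untreated. These groups did not overlap, but the log2 difference of 0.49 ± 0.33 did not pass (limma adjusted p = 1.0). In Esr1 glands it had 2.39, 2.33 and 4.18 TPM with tamoxifen, against 5.27, 1.31 and 2.04 TPM untreated, which overlapped (0.14 ± 0.33, adjusted p = 0.87 by limma, and -0.17 without untreated Esr1 replicate 2). With letrozole in Esr1 glands it had 3.77, 3.95 and 4.71 TPM, a log2 difference of 0.54 ± 0.33 that did not pass (limma adjusted p = 0.33). That difference was 0.23 without untreated Esr1 replicate 2 (adjusted p = 0.71) and passed only without replicate 1 (0.95, adjusted p = 0.045).

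Counting the tested members other than Akr1cl over the drug comparisons, 0 of 3 passed in each. With tamoxifen against untreated, 0.16% of all tested genes passed in CYP19A1 and 1.55% in Esr1 glands; 0 of 3 members had an unadjusted p under 0.05 in either. For letrozole against untreated, 0.0207% of genes passed in CYP19A1 and 8.65% in Esr1 glands, and 1 of 3 members had an unadjusted p under 0.05 in each. Between tamoxifen and letrozole, 0.248% of genes passed in CYP19A1 and 0.129% in Esr1 glands, with 0 and 1 of 3 members under 0.05 unadjusted. For the line difference with tamoxifen, 1.01% of genes passed and 1 of 3 members was under 0.05 unadjusted. Tests of whether the effects of tamoxifen, letrozole and age were unequal in the lines passed for 0 of 3 members each, with 0, 2 and 1 of them under 0.05 unadjusted and 0.0%, 0.0% and 0.00517% of genes called. Of 19325 genes, 846 in CYP19A1 and 3556 in Esr1 glands had an unadjusted limma p under 0.05 with tamoxifen against untreated. Letrozole against untreated had 733 and 5006 in the same order, and tamoxifen against letrozole 1950 and 1475. The line difference with tamoxifen had 1519 such genes, and the tests of unequal effects of tamoxifen, letrozole and age 2021, 2277 and 1652. Only 3 members entered these counts, so they say little about the family.

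**Figure D3:**
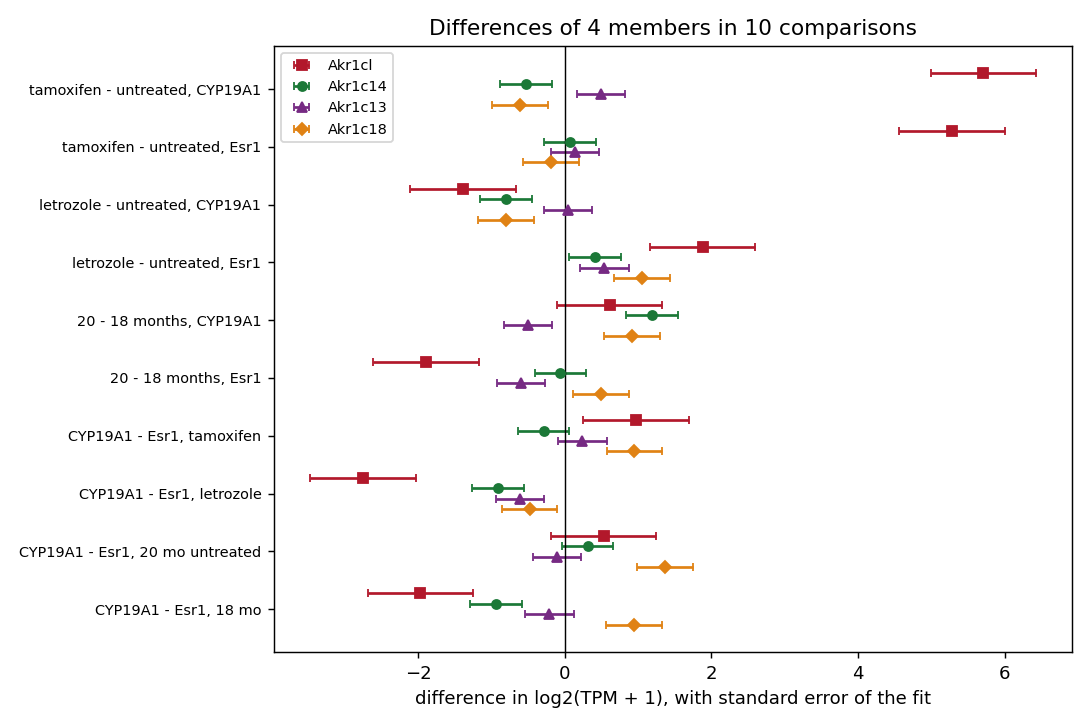
Differences in log2(TPM + 1) of the 4 tested members in 10 comparisons, each the first named group minus the other; bars are standard errors of the fit. Akr1cl stands at 5.71 and 5.28 with tamoxifen, while the other 3 members lie between -0.94 and 1.37.

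The 5 members below the filter were faint in every group. Akr1c6 was listed above 0 in 2 of 24 libraries and Akr1c20 in 3, in each case at no more than 0.05 TPM. Akr1c21 was above 0 in 16 libraries and reached 0.18 TPM. Akr1c12, whose promoter is nearly that of Akr1c13, ran from 0.04 to 0.80 TPM, far below the 1.10 to 7.38 TPM of Akr1c13; where their transcripts are as alike, the authors' quantification could have divided reads between them. It had 0.80, 0.42 and 0.40 TPM in Esr1 letrozole glands, against 0.13, 0.04 and 0.08 TPM in untreated ones, without overlap. In the fit with no filter this was a log2 difference of 0.50 ± 0.11 (limma adjusted p = 0.02, where 1198 genes were called). Without untreated Esr1 replicate 2 it was 0.47 (adjusted p = 0.069), and the call was also lost without untreated Esr1 replicate 3 or Esr1 letrozole replicate 1.

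Akr1c19, like Akr1c18, was higher in untreated CYP19A1 than in untreated Esr1 glands, at lower levels. It had 0.89, 0.46 and 1.3 TPM in untreated CYP19A1 glands, against 0.15, 0.05 and 0.06 TPM in untreated Esr1 glands. All 3 CYP19A1 glands were above all 3 Esr1 glands, and the mean was 10.2 times as high, or 16.1 times without untreated Esr1 replicate 1 and 8.41 times without replicate 2. With no filter, the log2 difference was 0.77 ± 0.13 (limma adjusted p = 0.0045), or 0.75 without untreated Esr1 replicate 2 (adjusted p = 0.019), and it was called whichever of the 24 libraries was left out. The fit with no filter called 835 genes in this comparison. Akr1c19 had 0.32, 0.24 and 0.16 TPM in CYP19A1 glands of 18 months, all below the 20-month ones (0.58 ± 0.13, limma adjusted p = 0.034 with no filter, where 1091 genes were called). That call was lost in 5 of the 24 fits that left out a library, a library of these groups in each case. Averaged over the 4 conditions with no filter, Akr1c19 was higher in CYP19A1 glands by 0.30 ± 0.07 (limma adjusted p = 0.01, where 1710 genes were called), and fits without a library were not run for this average. Its line difference was 0.07 ± 0.13 at 18 months and 0.34 ± 0.13 with tamoxifen (limma adjusted p = 0.99 and 0.5). With letrozole it was 0.03 ± 0.13, which did not pass either. The depth behind values this low is unknown.

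**Figure D4:**
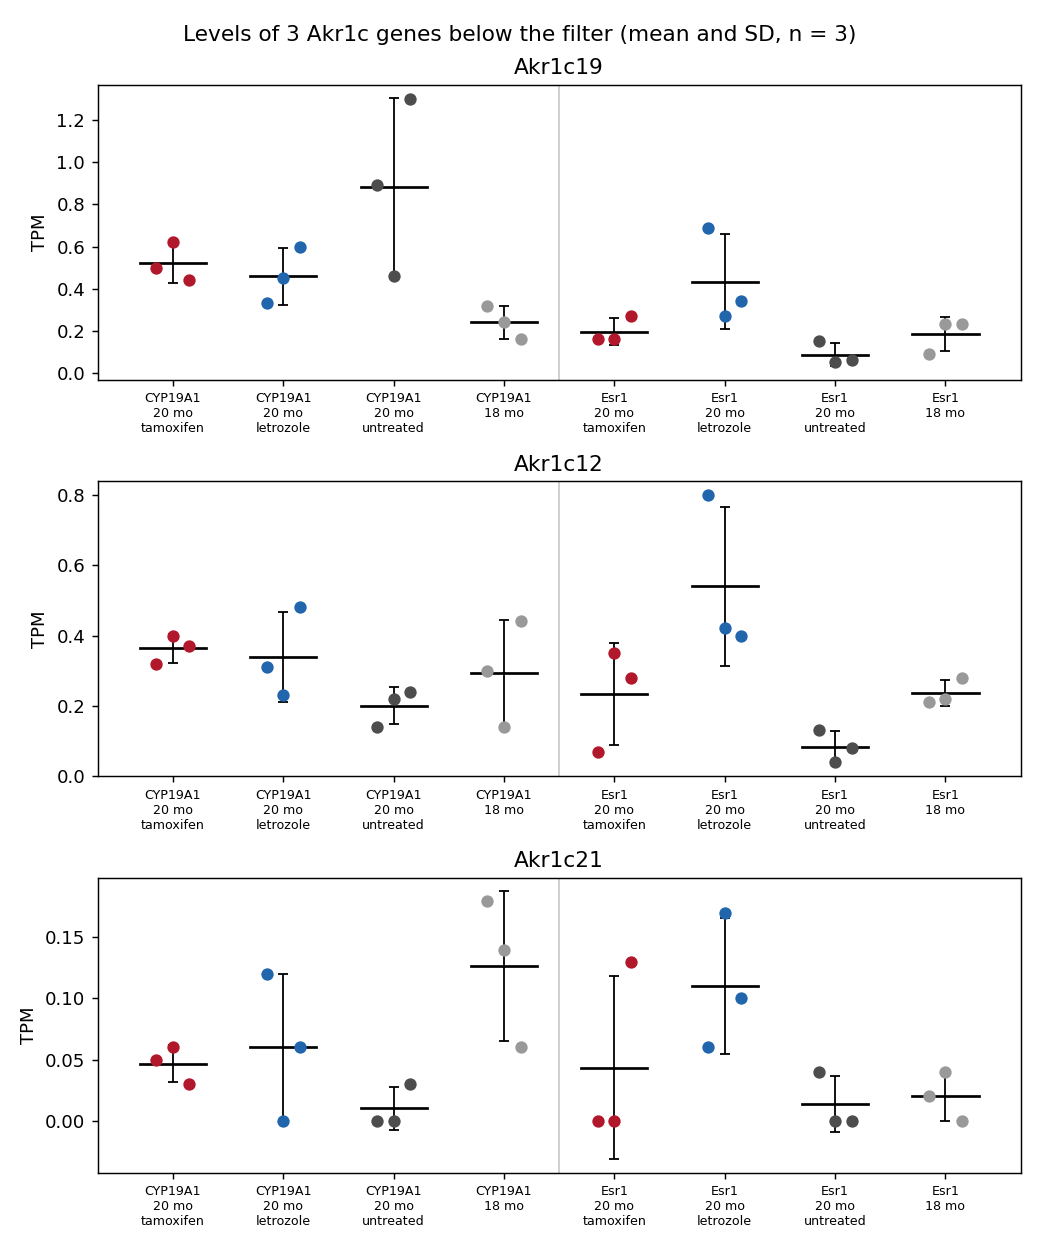
TPM of Akr1c19, Akr1c12 and Akr1c21 in each library by group, with bars for the mean and SD (n = 3). Akr1c19 has 0.46 to 1.3 TPM in untreated CYP19A1 glands and 0.05 to 0.15 TPM in untreated Esr1 glands; Akr1c21 stays at or below 0.18 TPM.

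Among all tested genes, those whose levels were most like Akr1cl over the 24 libraries were Thbs2 (Pearson r = 0.90), Prtn3, Adamts2, Plppr3 (0.89 each), Mmd2 (0.88) and Fam183b (0.86). Thbs2 encodes thrombospondin 2, a matrix protein, Adamts2 the procollagen N-proteinase, and Prtn3 proteinase 3, a serine protease of neutrophil granules. These correlations describe libraries that share the tamoxifen rise, and no p is given. Over the 18 libraries without tamoxifen, r was 0.73 for Thbs2, 0.72 for Prtn3, 0.60 for Adamts2, 0.47 for Plppr3, 0.77 for Fam183b and 0.03 for Mmd2. Gm8550, which lies within Akr1cl and was left out of the ranking as a predicted gene, had r = 0.92 over 24 and 0.76 over 18 libraries.

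Mmd2 was close to off outside tamoxifen. It had 42.11, 32.91 and 31.02 TPM in CYP19A1 tamoxifen glands, against 0.38, 0.92 and 1.04 TPM untreated. In Esr1 glands it had 9.08, 17.54 and 28.71 TPM with tamoxifen, against 0.05, 0.01 and 0.06 TPM untreated. No tamoxifen library overlapped the others. Thbs2 had 132.26, 144.75 and 173.27 TPM in CYP19A1 tamoxifen glands, against 27.88, 23.91 and 28.38 TPM untreated, and its Esr1 tamoxifen glands were spread, at 30.05, 118.24 and 233.80 TPM against 24.67, 6.66 and 14.40 TPM untreated. Esr1 tamoxifen replicate 1 was the lowest of its group for Akr1cl, Thbs2, Adamts2, Plppr3, Mmd2 and Fam183b.

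**Figure D5:**
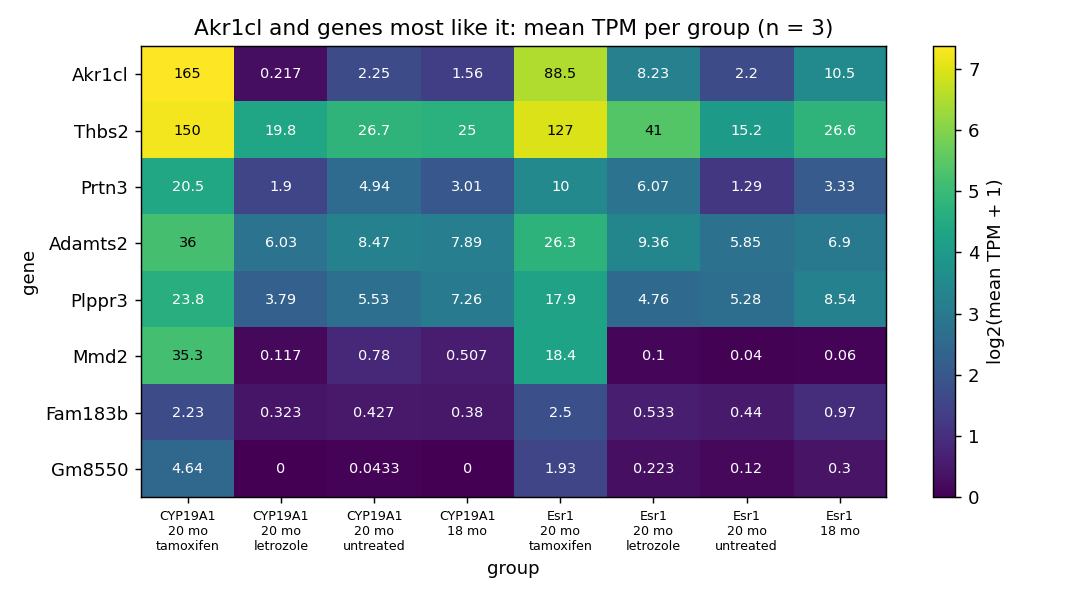
Mean TPM per group (n = 3; number in each cell, colour for log2 of the mean plus 1) of Akr1cl, of the 6 genes most like it and of the overlapping pseudogene Gm8550. Every gene has its 2 highest means in the tamoxifen groups, a pattern favoured by picking the 6 genes for likeness to Akr1cl over these same libraries.

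The genes most like Akr1c18 were others: Lrrn4cl (r = 0.89), Adgrd1 (0.88), Lynx1 (0.86) and Cd34 (0.85), and over the 18 libraries without tamoxifen r was 0.91, 0.92, 0.90 and 0.88 in the same order. Cd34 marks blood vessel lining and stromal progenitor cells. Ranked the same way after the values were seen, Akr1c13 was most like Spg21, Psat1, Tenm4 and Klhl5 (0.93 each) and Akr1c14 most like Steap3 (0.83), Olfml2b (0.81), Nmnat3 (0.81) and Rnf150 (0.79). Between members, r over 24 libraries was 0.35 for Akr1cl and Akr1c13, 0.24 for Akr1cl and Akr1c14, -0.04 for Akr1cl and Akr1c18, and 0.38 for Akr1c14 and Akr1c18. Over the 18 libraries without tamoxifen it was 0.68, 0.54, 0.06 and 0.48 in the same order.

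No tested gene from a list of reductases outside the subfamily was called with tamoxifen. Of 12 tested genes among 14 listed aldo-keto and carbonyl reductases outside subfamily 1C, 0 passed in either line, with median log2 differences of 0.25 in CYP19A1 and 0.03 in Esr1 glands against 0.055 and 0.051 over all genes. With tamoxifen, 0.16% of all tested genes were called in CYP19A1 and 1.55% in Esr1 glands. With age in the CYP19A1 line, Dcxr, the xylulose reductase, fell by 1.00 on the log2 scale (SE 0.21, limma adjusted p = 0.014). Akr1e1, the neighbour of the cluster on chromosome 13, fell by 1.26 (SE 0.34, limma adjusted p = 0.029). So 2 of 12 were lower and 0 higher, where 9.45% of all tested genes were called. Without CYP19A1 18-month replicate 1 or untreated CYP19A1 replicate 3 neither was called, and both calls were lost with median-ratio scaling; Akr1e1 was also lost without CYP19A1 18-month replicate 2 or untreated CYP19A1 replicate 1 or 2. Averaged over conditions, Akr7a5 was higher in the CYP19A1 line by 0.38 ± 0.07 (limma adjusted p = 0.0011) and Cbr2 and Dcxr lower, at -0.58 ± 0.15 and -0.35 ± 0.10 (limma adjusted p = 0.024 and 0.046), where 7.27% of all tested genes were called. Dcxr was also lower between the untreated lines (-0.80 ± 0.21, limma adjusted p = 0.03), a call lost in 6 of 32 other settings, among them the fit without untreated Esr1 replicate 2. The averaged call of Akr7a5 held in all 32 other settings, that of Dcxr was lost in 23 of them, and that of Cbr2 was lost without Esr1 18-month or Esr1 tamoxifen replicate 2.

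Of 11 tested steroid enzymes outside the subfamily, 0 were called with tamoxifen, where 0.16% of all tested genes were called in CYP19A1 and 1.55% in Esr1 glands. Hsd17b7, a 17beta-hydroxysteroid dehydrogenase that also works in cholesterol synthesis, was lower in CYP19A1 glands, at 2.87 ± 0.759 TPM over 12 CYP19A1 and 5.61 ± 1.29 TPM over 12 Esr1 glands (SD). Its averaged log2 difference was -0.78 ± 0.11 (limma adjusted p = 6.6e-05), a call kept in all 32 other settings, and it was also called between the untreated and between the letrozole groups of the lines (-0.84 and -1.22), calls lost in 6 and 1 of 32 other settings. With letrozole in Esr1 glands Hsd3b7 was higher (0.72 ± 0.19, limma adjusted p = 0.027), and Srd5a1, a 5alpha-reductase, and Hsd17b12 were lower (-0.57 ± 0.16 and -0.59 ± 0.17, limma adjusted p = 0.029 and 0.04). In that comparison 8.65% of all tested genes were called. Srd5a3 and Hsd11b1 were lower with age in the CYP19A1 line (-0.76 ± 0.18 and -0.83 ± 0.22, limma adjusted p = 0.018 and 0.027), but not without CYP19A1 18-month replicate 1 or 2 or untreated CYP19A1 replicate 3, nor with median-ratio scaling. Age in the CYP19A1 line gave calls for 9.45% of all tested genes. Without untreated Esr1 replicate 2, 0 of the 11 passed with letrozole in Esr1 glands. Markers of other cells moved with the letrozole result in Esr1 glands. There, 6 of 10 epithelial and 5 of 10 B and T cell markers were called lower, and 1 of 10 white adipocyte markers (Plin4) higher. Skeletal muscle markers summed to 23700 to 26700 TPM with letrozole and to 5220 to 17100 TPM untreated in Esr1 glands, without overlap, with none called. The part of these lists was not tested.

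Of 13 tested prostaglandin genes, 0 were called with tamoxifen in either line; Hpgd, which breaks prostaglandins down, was higher with letrozole in Esr1 glands (1.06 ± 0.31, limma adjusted p = 0.041), and Ptges, a prostaglandin E synthase, was lower with age in CYP19A1 glands (-1.30 ± 0.29, limma adjusted p = 0.015). Of 18 tested targets of Nrf2, a regulator of oxidative stress genes, 0 were called with tamoxifen. With letrozole in Esr1 glands Nqo1 and Gstm1 were higher (0.87 ± 0.23 and 1.42 ± 0.42, limma adjusted p = 0.026 and 0.042). Shares of all tested genes called were 0.16% and 1.55% with tamoxifen in CYP19A1 and Esr1 glands. They were 8.65% with letrozole in Esr1 glands and 9.45% with age in CYP19A1 glands. Without untreated Esr1 replicate 2, neither list had a call with letrozole in Esr1 glands, and the Ptges call was lost without CYP19A1 18-month replicate 1 or untreated CYP19A1 replicate 3. Gsta4 was higher in CYP19A1 glands on average (1.23 ± 0.19, limma adjusted p = 0.00024, called in all 32 other settings), at 28.1 ± 6.27 TPM against 12.1 ± 6.91 TPM in Esr1 glands (SD, n = 12 each).

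The progesterone and prolactin axis, 15 genes in all, gave the most calls of the 5 related lists. With tamoxifen in Esr1 glands 4 of 15 were lower and 0 higher, namely Rspo1 (-3.71 ± 0.75), Stat5a (-1.46 ± 0.31), Calca (-4.11 ± 0.96) and Tnfsf11 (-2.30 ± 0.56), with limma adjusted p of 0.025 to 0.047, where 1.55% of all tested genes were called. The calls of Calca and Tnfsf11 were lost with the replicate block and in 18 and 21 of 32 other settings in all, those of Rspo1 and Stat5a in 2 and 4. With tamoxifen in CYP19A1 glands 1 of 15 was lower, Areg, an oestrogen-responsive growth factor, at 0.28 to 0.54 TPM against 9.59 to 26.18 TPM untreated (-3.67 ± 0.59, limma adjusted p = 0.0078). With letrozole in Esr1 glands 8 of 15 were lower, among them the milk protein genes Csn2 (-9.52 ± 2.12) and Wap (-7.25 ± 1.94), where 8.65% of all tested genes were called. Epithelial markers summed to 141 to 214 TPM in Esr1 letrozole glands and to 469 to 585 TPM in untreated ones, with 6 of 10 called lower, and their part was not tested. With age in CYP19A1 glands 3 of 15 were lower (Calca, Tnfsf11 and Stat5a), where 9.45% of all tested genes were called, and none of these 3 calls held without CYP19A1 18-month replicate 1 or 2 or untreated CYP19A1 replicate 3. Between untreated lines 6 of 15 were lower in CYP19A1 glands and 1 higher, Pgr, the progesterone receptor gene, with 8.30 to 12.37 TPM in CYP19A1 and 1.33 to 5.23 TPM in Esr1 glands (1.44 ± 0.39, limma adjusted p = 0.039), where 5.27% of all tested genes were called. Without untreated Esr1 replicate 2 these counts were 0 lower with tamoxifen and 4 lower with letrozole in Esr1 glands, and 1 lower and 0 higher between untreated lines. The Areg call was lost without untreated CYP19A1 replicate 2 or 3 or CYP19A1 tamoxifen replicate 2.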

How the data were processed

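RNA libraries of 24 mouse mammary glands (stranded, rRNA-depleted, random-primed, per the labels) were given as TPM for 55487 genes. The authors deposited TPM to 2 decimals; RSEM 1.3.1, STAR 2.7.9a, Trim Galore 0.6.5, FastQC 0.11.9 and the build mm10 are named without roles, per the submitters' processing notes, which name no annotation. Groups came from the sample labels, whose replicate numbers mark separate animals.

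Here log2(TPM + 1) of the 19325 genes that reached 1 TPM in 3 or more samples was fitted with limma 3.58.1 (R 4.3.3) for 8 groups together, with trend and robust variance moderation, tested on simulated data first. A call is a Benjamini-Hochberg adjusted p under 0.05 over those genes, or, in a fit with another filter, over the genes it kept. With no filter these were all genes above 0 in any sample. Members and gene lists were chosen with earlier results of these data known. Named genes were the members, the 6 genes most correlated with Akr1cl and 4 with Akr1c18 (without predicted genes; group mean of at least 2 TPM in a group), and up to 6 called genes per related list and comparison. Promoters were RefSeq windows on GRCm38.p6, searched with Python 3.11.15 and aligned with Biopython 1.88. Alternatives were a pseudocount of 0.1, no filter or 5 TPM, median-ratio scaling, TPM without the 50 most abundant genes, the compared groups only, a replicate block, plain eBayes and leaving out each library. Added after seeing the data were fits with no filter that left out each library in turn, for Akr1c12 and Akr1c19, and ratios of means without each library.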

Additional observations from a re-analysis of the deposited data

How the results depend on the processing

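Akr1cl kept the sign of its difference with tamoxifen in all 32 settings, at 5.50 to 6.21 in CYP19A1 and 4.77 to 6.72 in Esr1 glands. Counts of called members among the 3 or 4 tested changed as follows, and the cause was not tested. Letrozole in Esr1 glands gave 1 with median-ratio scaling, where 4178 genes were called against 1672 in the main fit. Age in CYP19A1 glands gave 0 with no filter and 0 with the replicate block, where 1091 and 1336 genes were called against 1827. The untreated line comparison gave 0 with a pseudocount of 0.1, with no filter, with a 5 TPM filter, with the replicate block and with the compared groups only. Genes called in these were 890, 835, 635, 921 and 478 in that order, against 1019 in the main fit. The letrozole line comparison gave 1 with TPM rescaled without the 50 most abundant genes and 1 with the compared groups only. There 386 and 228 genes were called, against 175. The line average gave 0 with no filter, where 1710 genes were called against 1404. Leaving out 1 library gave 0 to 2 for letrozole in Esr1 glands, 0 to 1 for age in CYP19A1 glands, 0 to 1 for the untreated and for the letrozole line comparison, and 0 to 2 for the line average. Genes called in those fits ran from 280 to 3439, 2 to 3032, 255 to 1942, 96 to 284 and 1155 to 1662 in that order. Rescaling without the 50 most abundant genes raised mean Akr1cl to 489, 0.686, 7.10 and 4.35 TPM in CYP19A1 tamoxifen, letrozole, untreated and 18-month glands, and to 273, 25.6, 5.94 and 31.8 TPM in the Esr1 groups in that order, since the rest of each library then fills the total.

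Small differences that changed sign, none of them called, were Akr1c14 with age in Esr1 glands (0.10 with median-ratio scaling, 0.07 rescaled), and several without 1 library. Leaving out 1 library gave -0.17 to 0.55 for Akr1c13 (tamoxifen minus untreated, Esr1 line), -0.16 to 0.37 for Akr1c13 (letrozole minus untreated, CYP19A1 line), -0.46 to 0.11 for Akr1c13 (CYP19A1 minus Esr1 line, 18 months), -0.42 to 0.31 for Akr1c13 (CYP19A1 minus Esr1 line, 20 months untreated), -0.43 to 0.37 for Akr1c14 (tamoxifen minus untreated, Esr1 line), -0.09 to 0.72 for Akr1c14 (letrozole minus untreated, Esr1 line), -0.37 to 0.44 for Akr1c14 (20 minus 18 months, Esr1 line), -0.19 to 0.61 for Akr1c14 (CYP19A1 minus Esr1 line, 20 months untreated), -0.62 to 0.22 for Akr1c18 (tamoxifen minus untreated, Esr1 line) and -0.09 to 0.39 for Akr1c18 (tamoxifen minus letrozole, CYP19A1 line).

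Same-numbered samples deviated from their group means with correlations of -0.413 to 0.296 (median -0.00273, 84 pairs). Samples of different number gave -0.396 to 0.553 (median 0.00483, 168 pairs). By this measure same-numbered samples were no more alike than others. A correlation over all tested genes could miss a pairing that acts on few of them, so whether the numbers pair the samples is not settled. The replicate block took the called count to 0 for age in CYP19A1 glands and for the untreated line comparison and changed no other member count. Depth is unknown from TPM, which limits what can be said of members under 1 TPM.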
